A study of Mus musculus and Homo sapiens
Mus musculus with 14 samples.

Results

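The photoreceptor layer of the mouse retina, or outer nuclear layer (ONL), was compared with the ganglion cell layer (GCL), where ganglion cells lie beside amacrine cells displaced from the inner retina. Every gene with 20 or more UMIs summed over the 4 ONL and the 4 GCL libraries entered the comparison, which left 11442 of the 24460 genes listed. A UMI (unique molecular identifier) is a random tag on each cDNA that lets PCR copies of 1 molecule be counted once. The minimum used the sum over both layers and not their difference, and 127 genes had exactly 20 UMIs while 126 had 19. A gene with almost no UMIs in 1 layer passed this minimum through the other layer alone, so its large ratio was fixed in advance. The tissue came from a wild-type CD1 IGS mouse in the third postnatal week, with no genotype or treatment that differed between the groups. Each of 4 retinal cryosections, all cut from the same animal, gave 1 ONL and 1 GCL library, and these 4 sections are 4 of the 14 samples of the series. RNA was reverse transcribed inside the fixed section with random primers, and the cDNA of each layer was then marked with its own DNA barcode by light projected through a hand-drawn mask. The sections are technical replicates, so every s.d. and p-value here covers the spread between sections of 1 animal and not between animals.

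Photoreceptors turn light into a fall of cyclic GMP, which closes cation channels in an outer segment built from stacked membrane discs and joined to the cell body by a narrow modified cilium. They signal through graded release of glutamate at ribbon synapses and fire no sodium action potentials. Ganglion cells carry the output of the retina along the optic nerve in trains of action potentials, and displaced amacrine cells, many of them GABAergic and some cholinergic, release inhibitory and modulatory transmitters onto their dendrites.

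The GCL libraries held 785013, 667252, 650644 and 585655 UMIs in sections 1 to 4, and the ONL libraries 801105, 722893, 438059 and 310228. Levels are given as CPM, the UMIs of a gene scaled to 1000000 UMIs of the genes tested with TMM factors, as mean ± s.d. over the 4 sections unless each section is listed. The markers of each layer appeared in its own libraries. Summed over 10 rod markers, the ONL reached 64616, 79058, 81742 and 77606 CPM in sections 1 to 4, and the GCL 4584, 6729, 7825 and 5043 CPM, or 7.09%, 8.51%, 9.57% and 6.50% of the ONL level of the same section. Summed over 12 ganglion cell markers, the GCL reached 5357, 5509, 5162 and 5736 CPM and the ONL 695, 347, 395 and 628 CPM, or 13.0%, 6.30%, 7.65% and 10.9% of the GCL level. The GCL level of single rod markers was 6.70% (Cnga1) to 11.7% (Gngt1) of their ONL level, and that of cone markers 3.80% (Opn1sw) to 18% (Pde6c). The ONL level of single ganglion markers was 4.78% (Pou4f3) to 17.1% (Tubb3) of their GCL level. The share of these levels that comes from cells outside the drawn mask was not tested. In such bulk libraries fewer cells of a type and less RNA per cell cannot be told apart.

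**Figure D1:**
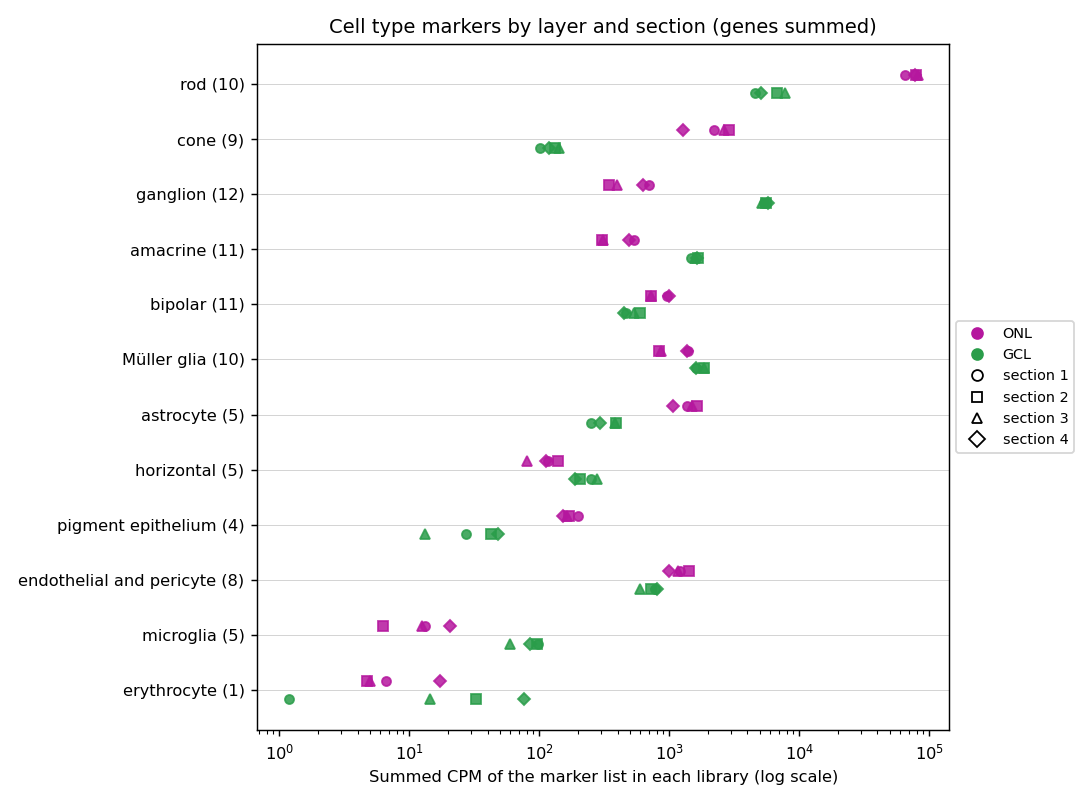
Summed CPM of the markers of 12 cell types (vertical axis, number of genes summed in brackets) in each ONL (magenta) and GCL (green) library, on a log axis, with 1 symbol shape per section. Rod, cone, bipolar, astrocyte, pigment epithelium and vascular (endothelial and pericyte) sums lie higher in all ONL libraries. Ganglion, amacrine, Müller glia, horizontal and microglia sums lie higher in all GCL libraries, and the red cell values overlap. The rod markers in the GCL stay between 4584 and 7825 CPM.

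Of the 11442 genes, 7039 (61.5%) differed between the layers at an adjusted p under 0.05 (edgeR quasi-likelihood test with the section as a block, Benjamini-Hochberg adjustment). Those higher in the ONL were 3453 (30.2% of the genes tested) and those higher in the GCL 3586 (31.3%). A difference of more than 2-fold was called for 2335 genes in the ONL direction (20.4%) and 2886 in the GCL direction (25.2%), and one of more than 8-fold for 320 (2.80%) and 500 (4.37%). The 4 ONL values lay wholly above or wholly below the 4 GCL values for 6357 genes, or 55.6% of those tested. The median log2 fold change of all genes, ONL over GCL, was 0.03. Since most genes differ, the count of a gene list has to be read against these shares. DESeq2, which called fewer genes, split its 5236 calls into 2232 in the ONL direction and 3004 in the GCL direction, and edgeR on plain library totals split 6946 calls into 2828 and 4118. These scalings move the median log2 fold change by -0.11 and -0.21.

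**Figure D2:**
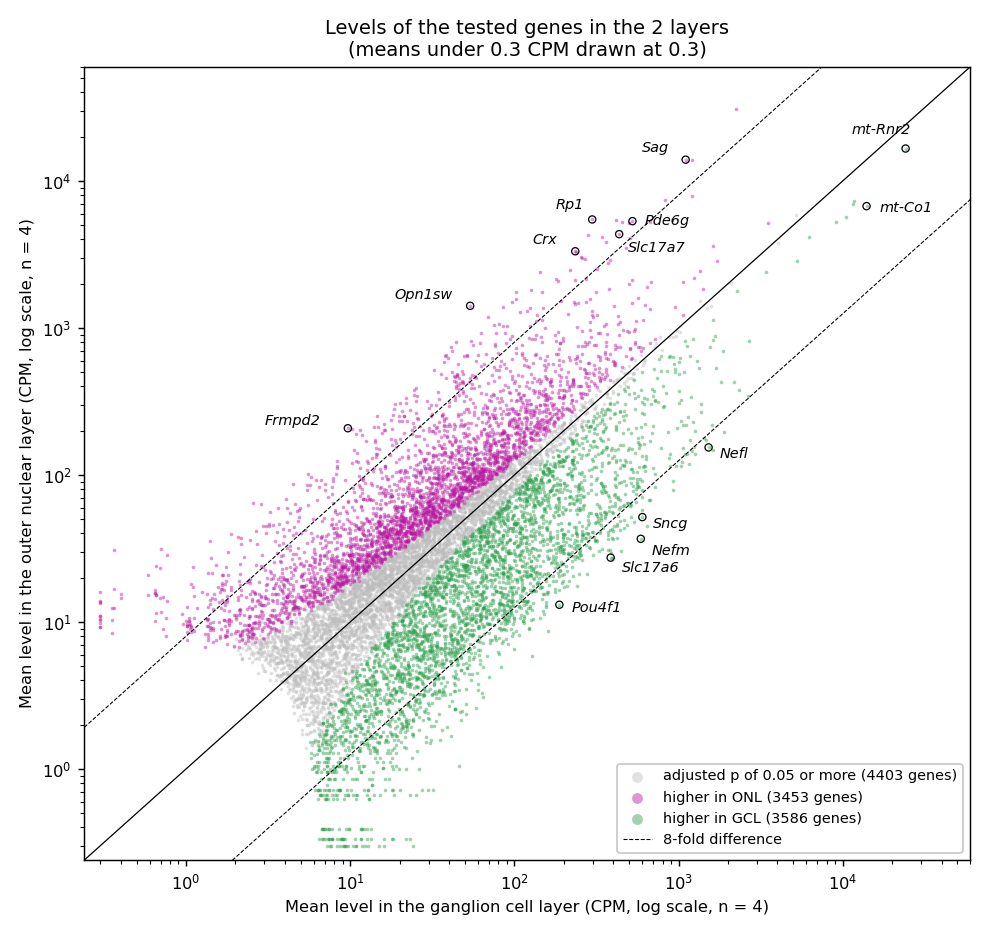
Mean CPM of each of the 11442 genes in the GCL (horizontal) and the ONL (vertical), both on log axes, coloured by the edgeR call, with the diagonal of equal level and dashed lines at an 8-fold difference; means under 0.3 CPM are drawn at 0.3. Sag and Pde6g lie on the ONL side beyond the upper dashed line, and Nefl, Sncg and Nefm lie on the GCL side beyond the lower one.

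The genes that mark the comparison parted the layers without overlap. Pde6g, the inhibitory subunit of the rod phosphodiesterase (chromosome 11, 120338431 to 120344326, GRCm39), stood at 5139, 5770, 5672 and 4748 CPM in the ONL of sections 1 to 4 and at 445, 613, 600 and 439 CPM in the GCL, a log2 fold change of 3.36 ± 0.10 (SE) with an adjusted p of 3.44e-35. Nefl, the light neurofilament chain of large axons (chromosome 14, 68321268 to 68326544), stood at 1449, 1612, 1404 and 1630 CPM in the GCL and at 219, 100, 90.5 and 205 CPM in the ONL, a log2 fold change of -3.34 ± 0.14 (SE) and an adjusted p of 2.69e-29. The ONL values of Nefl were higher in sections 1 and 4 than in sections 2 and 3, as the summed ganglion markers were. Sncg, gamma-synuclein (chromosome 14, 34092231 to 34100539), stood at 600, 586, 575 and 646 CPM in the GCL and at 49.1, 42.2, 40.2 and 75.0 CPM in the ONL, 12.1-fold higher in the GCL (adjusted p = 9.56e-30).

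Among the reported genes of 100 CPM or more in their higher layer, the 12 with the largest difference in the ONL direction ranged from a log2 fold change of 4.09 to 4.71. Opn1sw, the short-wavelength cone opsin, led them with 1329, 1834, 1708 and 788 CPM in the ONL and 41.3, 62.1, 53.7 and 58.1 CPM in the GCL. Its ONL level was lowest in section 4, where the summed cone markers were also lowest, at 1279 CPM against 2215 to 2879 in the other sections. Exons of Opn1sw overlap those of Calu on the opposite strand, the counting did not use strand, and Calu itself was higher in the ONL (162 ± 45 CPM in the ONL against 66.9 ± 10.4 in the GCL). Rp1, a microtubule protein of the outer segment axoneme, stood at 4697, 5670, 5780 and 5750 CPM in the ONL and 205, 363, 389 and 234 CPM in the GCL. Esrrb, an orphan nuclear receptor of rods, stood at 1538, 1901, 1761 and 1814 CPM against 70.8, 119, 136 and 83.9 CPM. For both genes the ONL was lowest in section 1, and the layers were far apart in every section. The water channel gene Aqp1 stood at 207 ± 28.7 CPM in the ONL against 10.3 ± 4.0 in the GCL. Tnfaip3, which encodes the ubiquitin-editing protein A20, stood at 748 ± 51.7 CPM in the ONL against 41.0 ± 12.2 in the GCL. Neither gene belongs to a phototransduction list. The others were Frmpd2, Pdzph1, Gramd2, Pcare (an actin regulator of the photoreceptor cilium), the long noncoding RNA gene E130310I04Rik (which overlaps Mylk on the opposite strand), the small GTPase gene Arl4d and Rdh12, a retinol dehydrogenase of the inner segment.

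In the GCL direction the 12 largest ranged from -4.04 to -3.68. Atp2b3, a calcium pump of the plasma membrane, stood at 164, 148, 167 and 160 CPM in the GCL and 15.9, 4.69, 7.55 and 6.82 CPM in the ONL. Nefm, the medium neurofilament chain, stood at 584, 587, 544 and 642 CPM against 43.8, 29.7, 32.7 and 40.9 CPM. Their products act in calcium clearance and in the axon. The others were Tppp3, Trarg1, Ahnak2, Kndc1, Pou4f1 (the transcription factor Brn3a), Slc17a6 (the vesicular glutamate transporter VGLUT2), Kitl, Nrn1 (neuritin), the axonal adhesion gene Cntn2 and Lgi3. None of the 24 genes had overlapping layers, and their largest adjusted p was 2.30e-19 in the ONL direction and 9.47e-18 in the GCL direction. In the bipolar cell layer of the same sections the 12 ONL genes had a median of 125 CPM and the 12 GCL genes 19.9 CPM, beside 39.6 CPM and 15.4 CPM in the opposite layer of this comparison.

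**Figure D3:**
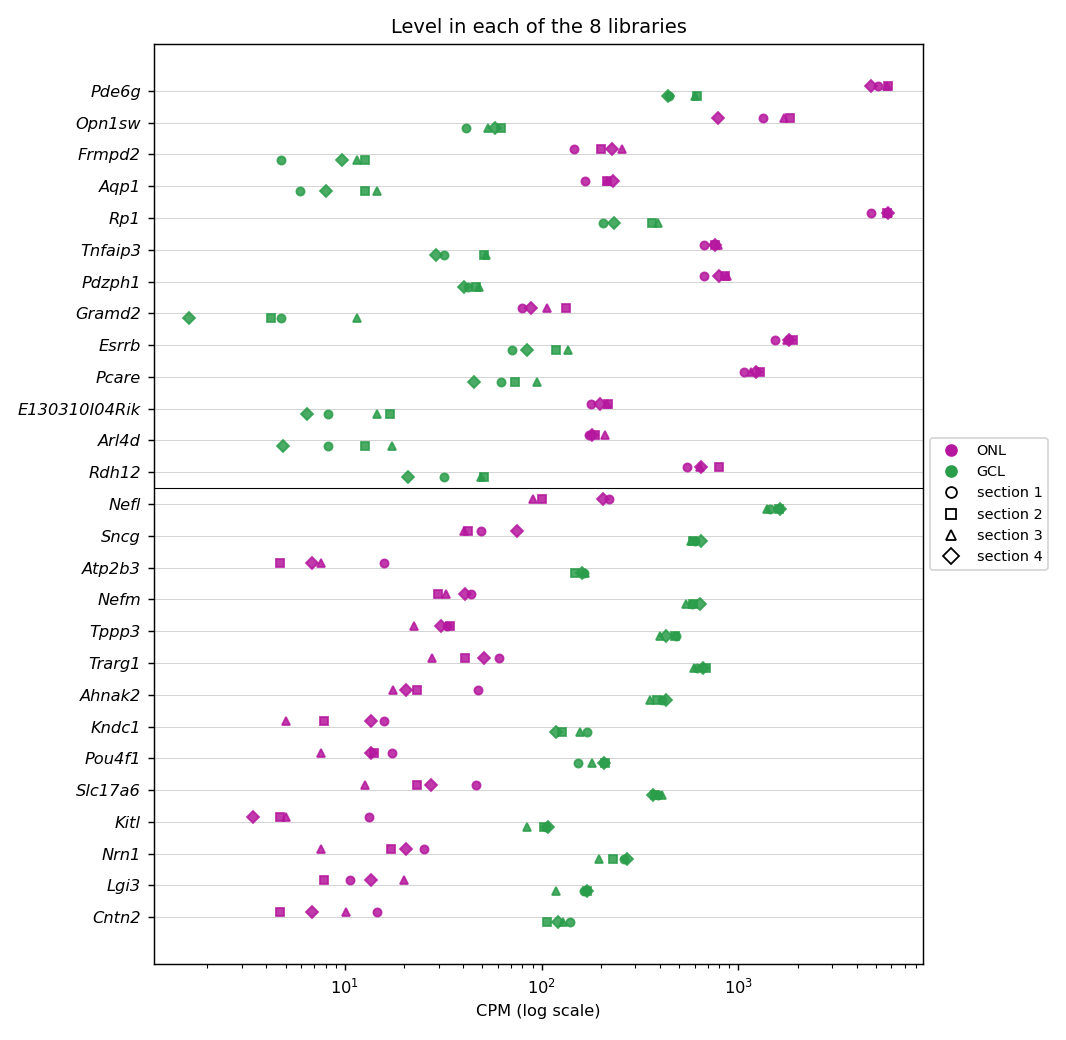
CPM of the 3 marker genes and of the 12 genes per direction with the largest difference (rows) in each ONL (magenta) and GCL (green) library, on a log axis, with 1 symbol shape per section. No row overlaps between layers, and Opn1sw is lowest in the ONL of section 4.

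The rod phototransduction cascade was higher in the ONL as a whole. All 20 members tested were called in that direction, with a median log2 fold change of 3.61 beside 0.03 over all genes. Gnat1, the rod transducin alpha subunit, stood at 13790 ± 1118 CPM in the ONL against 1202 ± 277 in the GCL. Pde6a, a catalytic subunit of the phosphodiesterase that transducin releases, stood at 4141 ± 398 CPM in the ONL against 342 ± 82.6 in the GCL. Genes that end the response were also higher in the ONL. The photoreceptor kinase Grk1 differed 16.9-fold (2401 ± 163 CPM in the ONL against 143 ± 41.4 in the GCL). The arrestin Sag differed 12.9-fold (13968 ± 2174 CPM in the ONL against 1105 ± 332 in the GCL). Gnb5, which pairs with RGS proteins in many neurons, was the member least apart, at a log2 fold change of 2.21. Guca1a had 7 UMIs in all and was not tested.

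Cone genes were also higher in the ONL. All 10 cone phototransduction genes were called in the ONL direction, with a median log2 fold change of 3.70. Opn1mw, the middle-wavelength opsin, stood at 170 ± 50.3 CPM in the ONL against 12.4 ± 3.04 in the GCL. The cone arrestin Arr3 stood at 174 ± 50.2 CPM in the ONL against 14.1 ± 4.25 in the GCL and the cone transducin beta subunit Gnb3 at 174 ± 44.5 CPM in the ONL against 18.8 ± 4.25 in the GCL. The lowest difference was that of Pde6c, the cone phosphodiesterase (2.46), which rests on 15.4 ± 5.77 CPM in the ONL against 2.78 ± 1.91 in the GCL. Per kilobase of exon, which is the scale on which genes can be compared, Opn1sw reached 553 ± 184 in the ONL against 21.0 ± 3.53 in the GCL. Opn1mw reached 109 ± 32.2 in the ONL against 7.96 ± 1.94 in the GCL on that scale.

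Wider families held members on both sides. Of 21 phosphodiesterase genes 8 were higher in the ONL (38.1%), against 11 in the GCL (52.4%), beside 30.2% and 31.3% of all genes. Pde6a (3.61), Pde6g (3.36), Pde6b (3.81) and Pde6h (4.23) led one side, with log2 fold changes in brackets. Pde4d (-2.77), Pde4a (-2.41), Pde1b (-2.15) and Pde3a (-1.83) led the other. Guanylate cyclases parted by type. The membrane cyclases Gucy2e (3.94) and Gucy2f (3.80) of photoreceptors and their activator Guca1b (4.07) were higher in the ONL, while the soluble, nitric oxide-sensitive subunits Gucy1b1 (-2.17), Gucy1a2 (-2.38) and Gucy1a1 (-1.08) were higher in the GCL. Of 18 RGS genes, which speed the shut-off of G proteins, Rgs9bp (3.93), Rgs9 (3.00), Rgs20 (2.95) and Rgs22 (3.05) were higher in the ONL and the other 14 in the GCL, led by Rgs5 (-3.39), Rgs4 (-3.14), Rgs7bp (-2.77) and Rgs8 (-2.28).

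Transcription factors of photoreceptors were higher in the ONL in 15 of 16 cases, with a median log2 fold change of 3.47. Crx, the homeodomain factor that most photoreceptor genes depend on, stood at 2866, 3564, 3496 and 3377 CPM in the ONL and 206, 271, 293 and 168 CPM in the GCL. Nrl, which directs rod fate, stood at 2088 ± 199 CPM in the ONL against 184 ± 40.2 in the GCL. The zinc finger gene Casz1 stood at 1371 ± 179 CPM in the ONL against 124 ± 32.0 in the GCL. Rxrg, a retinoid receptor gene, was the only one not called (13.5 ± 9.67 CPM in the ONL against 20.5 ± 8.13 in the GCL). Without section 1 the log2 fold change of Rxrg was -1.44 (adjusted p = 0.00441).

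CRX binds the core TAATCC, and that word was searched on both strands in the RefSeq promoter windows, which run from 250 bases before to 50 bases after a start. It was present in 17.5% of the 280 windows of genes more than 8-fold higher in the ONL, 8.79% of the 2321 windows of genes more than 2-fold higher there, 5.76% of the 11493 windows of all tested genes, 4.11% of the 3043 windows of genes more than 2-fold higher in the GCL and 2.51% of the 517 windows of genes more than 8-fold higher in the GCL. Among all 32851 windows of the table the share was 7.06%. The windows cover 8821 of the tested genes, 210 of the 320 genes in the 8-fold ONL group and 374 of the 500 in the 8-fold GCL group. Of 7 other words searched, AGGTCA, a nuclear receptor core, was present in 19.6% of the 8-fold ONL windows, 11.6% of those of all tested genes and 10.8% of the 8-fold GCL windows. TATAAA, the TATA box, was present in 12.9%, 6.74% and 7.93%, and TGCTGA, a core of NRL sites, in 21.4%, 15.1% and 19.3%. GGGCGG, a GC box, went the other way, with 42.5% of the 8-fold ONL windows, 63.0% of all tested and 57.8% of the 8-fold GCL windows, and median GC content was 55.7%, 61.3% and 60.3%. ATTAAT, a core of POU4F sites, was present in 3.21%, 2.20% and 2.51%, CACGTG in 6.79%, 9.79% and 5.80%, and TGACGTCA in 1.07%, 3.11% and 2.71%. In windows of genes more than 2-fold higher in the ONL, AGGTCA was present in 11.4%, TATAAA in 7.80%, TGCTGA in 14.2% and GGGCGG in 62.2%. These shares lay close to those of all tested genes. In windows of genes more than 2-fold higher in the GCL they were 10.8%, 6.97%, 17.7% and 59.3%. Different words can share letters, as TAATCC can run on from ATTAAT and TGACGTCA from TGCTGA, and such overlaps were kept. A match is a description of letters and not a shown binding site.

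In the 8-fold ONL group 33 of 56 CRX matches (58.9%), in 46 genes, began within the 100 bases before the start. The same was true of 225 of 698 matches (32.2%) in the windows of all tested genes and of 8 of 14 (57.1%) in the 8-fold GCL group. The 4 genes of that group with a match and the highest ONL level are printed here with the word in capitals, read as GGATTA where it lies on the opposite strand, beside the GCL marker Sncg, which has none, so that the position of the word can be seen. The windows, in GRCm38.p6, are Sag at chr1:87803430-87803729 (plus strand, match 87 bases before the start), Rbp3 at chr14:33953753-33954052 (plus, 69 before), Abca4 at chr3:122044210-122044509 (plus, 58 before), Crx itself at chr7:15879906-15880205 (minus, 94 and 21 before) and Sncg at chr14:34374620-34374919 (minus). Each is written 5′ to 3′ along the gene.
Sag: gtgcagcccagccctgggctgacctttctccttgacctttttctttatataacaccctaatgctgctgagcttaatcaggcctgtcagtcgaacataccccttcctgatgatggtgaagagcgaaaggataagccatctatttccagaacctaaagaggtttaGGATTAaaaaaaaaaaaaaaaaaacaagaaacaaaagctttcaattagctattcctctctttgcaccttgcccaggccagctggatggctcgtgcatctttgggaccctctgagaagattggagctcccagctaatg
Rbp3: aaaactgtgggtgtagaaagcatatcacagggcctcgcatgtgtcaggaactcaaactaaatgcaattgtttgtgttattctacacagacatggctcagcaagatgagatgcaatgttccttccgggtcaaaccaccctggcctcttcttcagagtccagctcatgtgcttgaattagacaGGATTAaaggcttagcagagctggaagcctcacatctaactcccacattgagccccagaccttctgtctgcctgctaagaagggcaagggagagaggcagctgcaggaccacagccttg
Abca4: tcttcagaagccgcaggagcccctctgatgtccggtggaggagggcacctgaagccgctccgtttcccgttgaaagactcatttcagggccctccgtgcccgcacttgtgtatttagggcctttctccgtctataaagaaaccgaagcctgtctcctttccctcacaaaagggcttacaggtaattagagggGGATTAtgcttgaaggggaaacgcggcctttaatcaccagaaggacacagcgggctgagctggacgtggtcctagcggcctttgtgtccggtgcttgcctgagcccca
Crx: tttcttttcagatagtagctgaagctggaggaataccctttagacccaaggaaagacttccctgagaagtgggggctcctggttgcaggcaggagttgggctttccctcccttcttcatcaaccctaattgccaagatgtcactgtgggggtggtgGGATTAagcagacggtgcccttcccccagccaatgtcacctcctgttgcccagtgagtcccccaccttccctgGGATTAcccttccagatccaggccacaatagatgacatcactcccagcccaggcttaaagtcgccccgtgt
Sncg: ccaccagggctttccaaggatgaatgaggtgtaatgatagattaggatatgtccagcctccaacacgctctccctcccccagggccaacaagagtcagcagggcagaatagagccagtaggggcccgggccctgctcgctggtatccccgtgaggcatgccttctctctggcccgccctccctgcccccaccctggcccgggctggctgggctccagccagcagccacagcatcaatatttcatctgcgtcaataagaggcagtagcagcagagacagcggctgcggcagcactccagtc

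Outer segment and cilium genes were mostly higher in the ONL. Of 18 genes of the discs and the surrounding matrix 16 were higher in the ONL (median log2 fold change 3.54). Prph2, the tetraspanin of the disc rim, stood at 4920, 6489, 5594 and 4799 CPM in the ONL and 324, 494, 536 and 305 CPM in the GCL. The doublecortin-domain gene Rp1l1 stood at 1491 ± 175 CPM in the ONL against 96.7 ± 24.5 in the GCL. Reep6, which shapes rod endoplasmic reticulum, stood at 5290 ± 642 CPM in the ONL against 452 ± 127 in the GCL. Against the majority, Tmem30a, the beta subunit of lipid flippases, was higher in the GCL (-0.51), with overlapping layers, while its photoreceptor partner Atp8a2 (1.68) was higher in the ONL. Mertk, the phagocytic receptor of the pigment epithelium, stood at 2.83 ± 1.74 CPM in the ONL against 6.07 ± 2.31 in the GCL and was not called.

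Cilium and ciliary transport genes were higher in the ONL in 31 of 40 cases, with a median log2 fold change of 1.81 and a wide span. Rpgrip1, an anchor of the connecting cilium, stood at 514 ± 43.2 CPM in the ONL against 32.3 ± 4.30 in the GCL. The ciliary kinase gene Mak stood at 376 ± 46.5 CPM in the ONL against 24.6 ± 4.80 in the GCL. All components of the BBSome in the list were called, from Bbs1 (1.70) to Bbs5 (3.58). The IFT genes, which encode the trains that run along every cilium, were in part called: Ift122 (2.29), Ift74 (1.53), Ift81 (1.17), Ift80 (0.91) and Ift172 (0.75) were called, and Ift20, Ift57, Ift88 and Ift140 were not, with log2 fold changes from -0.20 to 0.41. Ift172 was not called by DESeq2 or without section 1. The small GTPase genes Arl13b (3.86), Arl6 (2.65) and Arl3 (1.96), which sort proteins into cilia, were all higher in the ONL. Kif3a, a motor subunit of the same trains, was the member called the other way (91.2 ± 15.5 CPM in the GCL against 54.9 ± 9.78 in the ONL), while its partner Kif3b (1.54) was higher in the ONL.

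The visual cycle regenerates the chromophore partly in photoreceptors and partly in the pigment epithelium and Müller glia. Of 13 genes 9 were higher in the ONL and none in the GCL. Rbp3, the retinoid carrier of the matrix between photoreceptors and pigment epithelium, stood at 7552, 9384, 7292 and 5331 CPM in the ONL and 663, 953, 1032 and 639 CPM in the GCL. The outer segment dehydrogenase Rdh8 stood at 309 ± 83.0 CPM in the ONL against 20.2 ± 7.98 in the GCL. The enzyme genes Rdh12 and Dhrs3 differed 17.0-fold and 10.8-fold. Rpe65, the isomerase of the pigment epithelium, was also higher in the ONL, at a low level (39.0 ± 10.1 CPM in the ONL against 4.48 ± 1.89 in the GCL). Rgr, another gene of that epithelium, stood at 35.5 ± 11.2 CPM in the ONL against 5.84 ± 4.31 in the GCL. Ttr stood at 90.9 ± 16.4 CPM in the ONL against 19.9 ± 9.96 in the GCL. The pigment epithelium touches the outer segments, and the authors dissected the neural retina before sectioning. The summed pigment epithelium markers were 153 to 199 CPM in the ONL and 13.1 to 48.4 CPM in the GCL, and their part in the visual cycle counts was not tested.

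Lipid genes went both ways. The elongases of very long chains Elovl2 (3.77) and Elovl4 (2.71) and the phospholipid acyltransferases Agpat3 (2.91) and Lpcat1 (2.42) were higher in the ONL. Higher in the GCL were the desaturases Fads1 (-2.14), Scd1 (-3.09) and Scd2 (-1.18) and the elongase Elovl6 (-1.77), which acts on saturated chains. In all, 7 of 19 genes were higher in the ONL (36.8%), against 8 in the GCL (42.1%), beside 30.2% and 31.3% of all genes. The split of this list is thus not far from that of all genes.

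**Figure D4:**
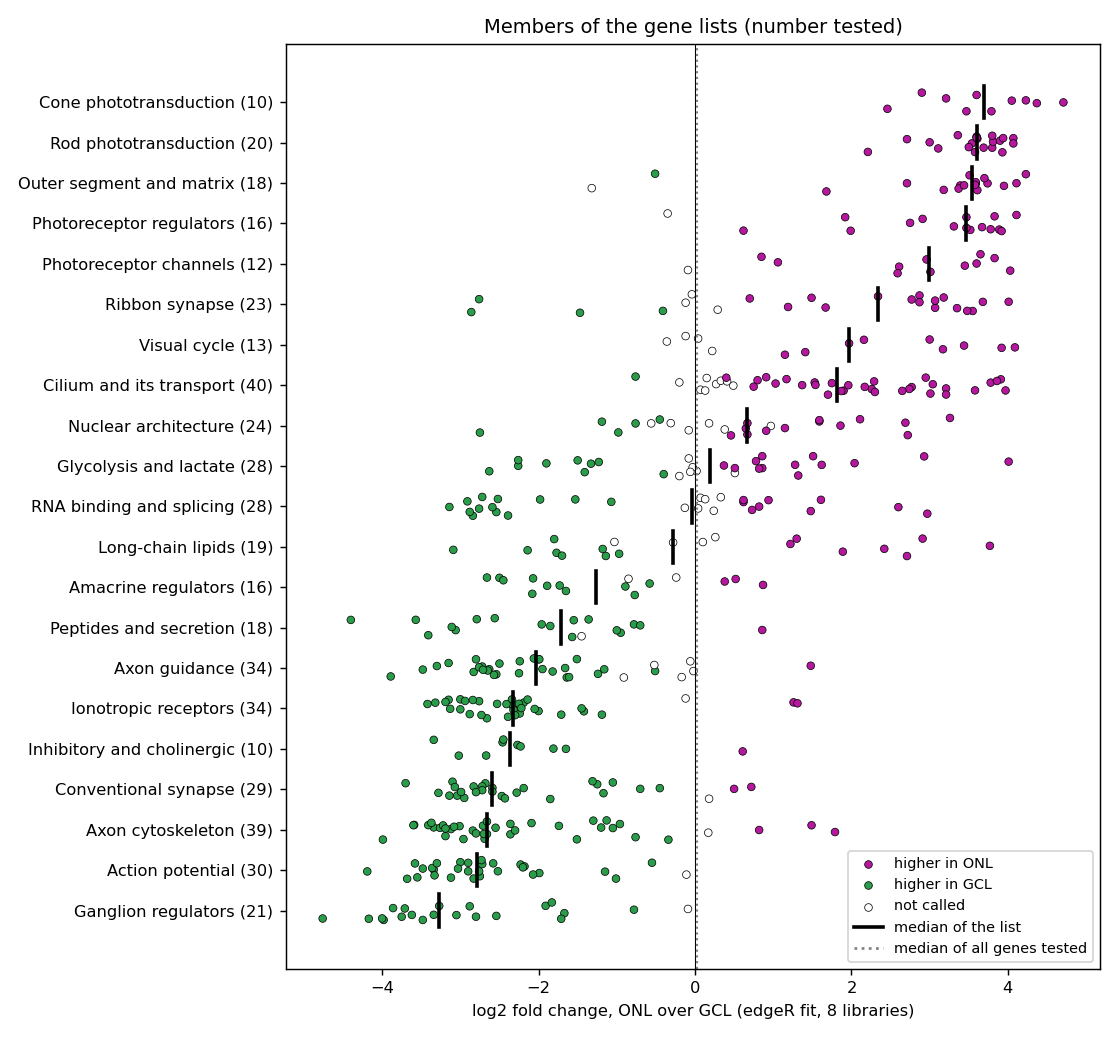
Log2 fold change, ONL over GCL, of each tested member (point) of 21 gene lists (rows, number tested in brackets), coloured by the edgeR call, with the median of each list as a bar and the median of all 11442 genes as a dotted line. Photoreceptor lists and the ribbon synapse list lie on the right, lists of excitability, axon and conventional synapse on the left, and glycolysis and RNA-binding genes spread to both sides.

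Synaptic genes fell into a set higher in the ONL and a set higher in the GCL. Of 23 genes listed for the ribbon synapse, 16 were higher in the ONL (median log2 fold change 2.34). Slc17a7, the vesicular glutamate transporter VGLUT1, stood at 4070, 5341, 4402 and 3581 CPM in the ONL and 330, 580, 511 and 320 CPM in the GCL. Ctbp2, whose locus encodes the ribbon protein RIBEYE, stood at 1036 ± 56.5 CPM in the ONL against 124 ± 21.6 in the GCL. The priming factor Unc13b stood at 621 ± 74.9 CPM in the ONL against 72.9 ± 14.7 in the GCL, and the calcium sensor Cabp4 at 188 ± 33.7 CPM in the ONL against 11.8 ± 5.04 in the GCL. Lrit1, a synaptic adhesion gene of photoreceptors, stood at 568 ± 62.4 CPM in the ONL against 45.6 ± 23.1 in the GCL. In the bipolar cell layer of the same sections Slc17a7 stood at 1900 ± 264 CPM, Ctbp2 at 610 ± 35.7 and Cabp4 at 30.6 ± 9.29. The complexin gene Cplx3 was higher there (484 ± 14.6 CPM) than in the ONL (133 ± 29.6). Several genes of this set are thus not particular to the ONL. The scaffold genes of the active zone were higher in the GCL. Rims1 stood at 468 ± 43.8 CPM in the GCL against 62.4 ± 16.9 in the ONL. Rimbp2 stood at 90.3 ± 12.7 CPM in the GCL against 11.8 ± 7.42 in the ONL. Bsn stood at 818 ± 7.92 CPM in the GCL against 295 ± 33.6 in the ONL. These are large proteins of the release site. Pclo, the piccolo gene, stood at 1089 ± 51.9 CPM in the GCL against 818 ± 57.8 in the ONL. Their relative Rims2 (1.67) was higher in the ONL and Erc2 (0.29) was not called. These scaffolds are used at conventional synapses too.

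Conventional synapse genes were higher in the GCL in 26 of 29 cases (median -2.59). Syn1, a phosphoprotein that tethers vesicles and is absent from ribbon terminals, stood at 1131, 1104, 1177 and 1118 CPM in the GCL and 187, 106, 111 and 147 CPM in the ONL. Cplx1, a complexin that clamps the SNARE complex, stood at 929 ± 119 CPM in the GCL against 90.5 ± 28.5 in the ONL. Its relative Cplx2 stood at 1264 ± 78.8 CPM in the GCL against 200 ± 47.3 in the ONL. Against the majority, the vesicle protein gene Syp was higher in the ONL (717 ± 74.1 CPM in the ONL against 507 ± 12.4 in the GCL). Vamp2 was not called, at a log2 fold change of 0.18 that was -0.04 with plain library totals, and Snap25 (-1.05) and Snap91 (-0.45) were higher in the GCL. All 13 neurexin, neuroligin, calsyntenin and LRRTM genes except Lrrtm4 were higher in the GCL, led by Nrxn2 (-2.59), Clstn2 (-3.58) and Clstn3 (-2.17).

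Genes of the action potential were almost all on the GCL side. Of 30 members 29 were higher in the GCL, none was higher in the ONL, and the median log2 fold change was -2.79. Scn1a, a sodium channel alpha subunit, stood at 467, 414, 421 and 394 CPM in the GCL and 59.8, 26.6, 17.6 and 44.3 CPM in the ONL. The axonal potassium channel gene Kcna2 stood at 548 ± 48.9 CPM in the GCL against 74.2 ± 22.5 in the ONL, and Kcnc1, a fast delayed rectifier, at 491 ± 13.6 CPM in the GCL against 64.1 ± 21.4 in the ONL. Nfasc, a cell adhesion gene of the axon initial segment and node, was the exception and stood at 528 ± 12.3 CPM in the GCL against 490 ± 21.8 in the ONL. With plain library totals the log2 fold change of Nfasc was -0.33, and it was called for the GCL.

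Conductances listed for photoreceptors were mostly higher in the ONL. Of 12 listed channels, pumps and transporters 11 were higher in the ONL (median 2.99). Kcnv2, a potassium channel subunit of photoreceptors, stood at 1283, 1537, 1421 and 1313 CPM in the ONL and 62.5, 113, 102 and 66.2 CPM in the GCL. The exchanger gene Slc24a1, which clears calcium from the rod outer segment, stood at 3053 ± 584 CPM in the ONL against 255 ± 71.5 in the GCL. The taurine transporter gene Slc6a6 stood at 4085 ± 528 CPM in the ONL against 508 ± 80.1 in the GCL.

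In the whole channel families few members were higher in the ONL. Of 63 potassium channel genes 53 were higher in the GCL and 5 in the ONL, among the latter Kcnv2 (4.03), Kcnj14 (3.83), Kcne2 (4.63) and Kcnh6 (1.67). Of 12 sodium channel genes Scn4a alone was higher in the ONL (27.1 ± 3.89 CPM in the ONL against 1.42 ± 1.2 in the GCL) and the other 11 were higher in the GCL, led by Scn1a (-3.48), Scn2a (-3.34), Scn2b (-3.12) and Scn8a (-1.99). Scn7a had 69 UMIs in the GCL and 2 in the ONL, a ratio of 25.1 with an exact 95% counting interval of 6.69 to 211. Of 22 calcium channel genes 3 were higher in the ONL. Cacna1f, the alpha subunit at ribbon synapses, stood at 474 ± 54.0 CPM in the ONL against 42.9 ± 22.8 in the GCL. Cacnb2 stood at 620 ± 47.3 CPM in the ONL against 97.2 ± 17.7 in the GCL. Cacna2d4 stood at 425 ± 47.2 CPM in the ONL against 48.6 ± 18.9 in the GCL. These 3 encode subunits of a channel that photoreceptors use. In the bipolar cell layer of the same sections Cacna1f stood at 283 ± 21.2 CPM, Cacnb2 at 195 ± 42.4 and Cacna2d4 at 501 ± 28.7. Thus Cacna2d4 was not particular to the ONL. Cacna1a (-3.17), Cacna2d2 (-2.68), Cacna1b (-3.28) and Cacnb3 (-3.24) led the 18 higher in the GCL. Among channels gated by cyclic nucleotides or hyperpolarization, Cnga1 (3.90), Cngb1 (3.60), Cnga3 (4.37) and Cngb3 (2.90) were higher in the ONL and Hcn2 (-2.68), Hcn3 (-2.52) and Hcn4 (-2.46) in the GCL.

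Receptors for fast transmitters were higher in the GCL in 31 of 34 cases (median -2.33). The nicotinic receptor gene Chrnb3 stood at 754, 766, 665 and 700 CPM in the GCL and 112, 56.3, 75.5 and 88.7 CPM in the ONL. Chrna6, a partner subunit, stood at 536 ± 45.8 CPM in the GCL against 48.2 ± 18.4 in the ONL. The obligatory NMDA receptor subunit gene Grin1 stood at 252 ± 11.5 CPM in the GCL against 30.0 ± 11.7 in the ONL. Grin2a stood at 185 ± 38.8 CPM in the GCL against 21.6 ± 8.98 in the ONL. Grin2c had 28 UMIs in the GCL and none in the ONL, at least 6.79-fold higher at a floor of 3 UMIs over the 4 libraries, a bound that covers counting error alone. This gene passed the minimum of UMIs through the GCL alone, which fixes a large difference in advance. The rho subunits of GABA receptors Gabrr2 (1.31) and Gabrr1 (1.26) were higher in the ONL at low levels (16.1 ± 2.41 CPM in the ONL against 6.06 ± 3.25 in the GCL for Gabrr2), both were called by edgeR on all 4 sections and neither by DESeq2, and Grik1, the kainate receptor of OFF bipolar cells, was not called. Without section 4 neither was called, and without section 1 Gabrr1 was not.

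Ganglion cell transcription and RNA regulators had the lowest median of the 21 function lists. Of 21 tested 20 were higher in the GCL, with a median log2 fold change of -3.27. Rbpms, an RNA-binding protein that marks all ganglion cells, stood at 450, 388, 361 and 403 CPM in the GCL and 47.8, 21.9, 35.2 and 40.9 CPM in the ONL. Pou4f1 stood at 153, 210, 180 and 207 CPM in the GCL and 17.3, 14.1, 7.55 and 13.6 CPM in the ONL. The early B-cell factor gene Ebf3 stood at 206 ± 26.4 CPM in the GCL against 24.2 ± 6.89 in the ONL. Its relative Ebf1 stood at 180 ± 32.0 CPM in the GCL against 19.1 ± 5.71 in the ONL. Foxp2, which marks some ganglion cell types, had 86 UMIs in the GCL and 2 in the ONL, a ratio of 31.3 with an exact 95% counting interval of 8.4 to 262.

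Amacrine cell regulators were less uniform, with 11 of 16 higher in the GCL and a median log2 fold change of -1.27. Pax6, a homeodomain gene of ganglion and amacrine cells, stood at 320, 309, 328 and 299 CPM in the GCL and 65.1, 50, 57.8 and 44.3 CPM in the ONL. Barhl2 stood at 89.7 ± 21.4 CPM in the GCL against 13.0 ± 10.1 in the ONL. Tfap2a, an AP-2 factor of amacrine cells, stood at 120 ± 15.4 CPM in the GCL against 31.3 ± 9.61 in the ONL. Tfap2b stood at 221 ± 18.3 CPM in the GCL against 70.9 ± 38.0 in the ONL. Meis1 (131 ± 23.0 CPM in the ONL against 70.3 ± 7.93 in the GCL), Tcf4 (0.52) and Prox1 (0.38) were higher in the ONL. For Tcf4 and Prox1 the layers overlapped, with plain library totals 1 of the 3 was called, and without section 1 the log2 fold change of Prox1 was -0.08. DESeq2 called 1 of the 3.

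Transmitter genes of amacrine cells were higher in the GCL in 9 of 10 cases (median -2.36). Gad1, which makes GABA, stood at 357, 464, 383 and 445 CPM in the GCL and 129, 50, 50.3 and 113 CPM in the ONL. Gad2, the other GABA-making enzyme gene, stood at 135 ± 4.32 CPM in the GCL against 23.9 ± 13.0 in the ONL. The GABA transaminase gene Abat stood at 282 ± 31.5 CPM in the GCL against 49.1 ± 11.0 in the ONL. The cholinergic genes that mark starburst amacrine cells were present at low levels, with Slc18a3, the vesicular acetylcholine transporter, at 36.7 ± 4.84 CPM in the GCL against 3.50 ± 1.45 in the ONL and Chat (-3.02) and Slc5a7 (-2.67) in the same direction. Slc6a9, the glycine transporter, was the member called for the ONL (57.0 ± 13.0 CPM in the ONL against 37.4 ± 11.7 in the GCL), with overlapping layers, and it was not called with plain library totals, by DESeq2 or without section 1.

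Genes of the axon skeleton were higher in the GCL in 35 of 39 cases (median -2.66). Nefh, the heavy neurofilament chain, stood at 1627, 1577, 2194 and 2216 CPM in the GCL and 215, 141, 191 and 242 CPM in the ONL. Map1a, a microtubule-associated protein of mature neurons, stood at 2637 ± 104 CPM in the GCL against 345 ± 111 in the ONL. Uchl1, Thy1 and Stmn2, familiar ganglion cell genes, had log2 fold changes of -3.37, -3.60 and -3.41. Against the majority, 3 genes were higher in the ONL, each without overlap. Dpysl3 stood at 1403 ± 82.8 CPM in the ONL against 404 ± 10.2 in the GCL. Map2 stood at 1601 ± 106 CPM in the ONL against 567 ± 30.6 in the GCL. Kif1b stood at 2195 ± 174 CPM in the ONL against 1239 ± 38.7 in the GCL. Map1b was not called, at a log2 fold change of 0.17 that was -0.04 with plain library totals. Dpysl3 and Map2 are usually named with dendrites and growing axons, while their relatives Dpysl2 (-2.09), Dpysl5 (-2.66) and Mapt (-2.66) were higher in the GCL. Septins, which form filaments under the membrane, were higher in the GCL in all 8 genes tested, led by Septin3 (-2.76), Septin5 (-2.36), Septin11 (-1.83) and Septin6 (-2.51) and ending with Septin4 (-0.40), whose layers overlapped. Septin4 was not called by DESeq2 or without section 3 or 4.

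Of 21 kinesin genes 9 were higher in the ONL (42.9%), against 10 in the GCL (47.6%), beside 30.2% and 31.3% of all genes. DESeq2 called 5 and 10. Kif21b led the ONL side (1218 ± 101 CPM in the ONL against 137 ± 16.2 in the GCL), followed by Kif3b (1.54), Kif1b (0.82) and Kif13a (0.74), the last not called by DESeq2. Kif5a, the conventional kinesin of long axons, led the GCL side (1039 ± 45.7 CPM in the GCL against 116 ± 40.1 in the ONL), followed by Kif5c (-2.70), Kif1a (-1.74) and Kif3c (-2.50). Tubulins were mostly on the GCL side, with Tubb4a (-3.08), Tubb3 (-2.55), Tubb2a (-3.01) and Tuba1a (-1.51), and Tube1, an epsilon tubulin of centrioles, was the only one higher in the ONL (43.4 ± 11.4 CPM in the ONL against 7.81 ± 2.45 in the GCL).

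Guidance and adhesion genes were on the GCL side as well. Of 34 guidance genes 28 were higher in the GCL (median -2.03). L1cam, an adhesion molecule of axon bundles, stood at 511 ± 18.3 CPM in the GCL against 51.6 ± 19.7 in the ONL. Sema6a stood at 378 ± 20.7 CPM in the GCL against 57.0 ± 11.7 in the ONL. Robo2, a receptor for Slit ligands, stood at 396 ± 17.0 CPM in the GCL against 56.3 ± 29.0 in the ONL. These act between axons or at growth cones. The adhesion gene Nrcam stood at 379 ± 17.3 CPM in the GCL against 122 ± 19.3 in the ONL. Slit3 had 27 UMIs in the GCL and 1 in the ONL, a ratio of 19.6 with an exact 95% counting interval of 3.24 to 804. Since Slit3 passed the minimum of UMIs through the GCL alone, a large ratio was fixed in advance. Plxna2, a semaphorin receptor, was the member higher in the ONL (754 ± 55.1 CPM in the ONL against 271 ± 26.2 in the GCL). In the wider family of semaphorins, plexins and neuropilins it was joined there by Sema3f (2.83), Plxnb1 (1.28), Sema4b (0.75) and Sema3c (1.48), against 18 of 28 higher in the GCL. DESeq2 called neither Sema4b nor Sema3c, Sema3c was not called without section 1, 3 or 4, and Sema4b was not called without section 2. Of 19 ephrin and Eph receptor genes 16 were higher in the GCL and none in the ONL, led by Ephb2 (-1.95), Efnb2 (-2.72), Epha4 (-2.25) and Epha5 (-1.99). Among 55 cadherins and protocadherins Cdhr1 (3.37) and Pcdh15 (3.78), cadherins of photoreceptor outer segments and calyces, headed the 4 higher in the ONL, and Pcdh7 (-3.31), Pcdh10 (-3.10), Pcdh1 (-2.81) and Pcdh19 (-3.04) the 33 higher in the GCL.

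Neuropeptide and secretory granule genes were higher in the GCL in 16 of 18 cases (median -1.71). Cartpt, the CART peptide precursor of direction-selective ganglion cells, stood at 131, 134, 160 and 194 CPM in the GCL and 26.6, 3.13, 7.55 and 13.6 CPM in the ONL. Pam, which amidates peptides, stood at 185 ± 21.0 CPM in the GCL against 34.3 ± 17.1 in the ONL. The granin gene Scg2 stood at 406 ± 8.21 CPM in the GCL against 134 ± 30.0 in the ONL. Pcsk1n, an inhibitor of prohormone convertase, stood at 618 ± 36.4 CPM in the GCL against 306 ± 19.7 in the ONL. Penk, the enkephalin precursor, had 101 UMIs in the GCL and 3 in the ONL, a ratio of 24.5 with an exact 95% counting interval of 8.14 to 121. Cpe, the carboxypeptidase that trims peptides, was the member higher in the ONL (983 ± 225 CPM in the ONL against 540 ± 36.4 in the GCL).

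Pairs of related genes were set side by side, 1 gene known from photoreceptors and 1 from other neurons in each. The choice was made with earlier results known, so the count is a description of these pairs alone. Of 16 pairs, 13 had 1 gene called for each layer and 3 had both genes called for the same layer. In CPM per kilobase, Slc17a7 was at 806 ± 138 in the ONL against 80.7 ± 24.2 in the GCL. Its relative Slc17a6 was at 5.08 ± 2.62 in the ONL against 71.4 ± 3.16 in the GCL. The sodium pump beta subunit gene Atp1b2 was at 1337 ± 234 in the ONL against 223 ± 38.5 in the GCL. Its relative Atp1b1 was at 47.3 ± 11.9 in the ONL against 393 ± 30.7 in the GCL. The complexin gene Cplx4 was at 130 ± 12.2 in the ONL against 11.0 ± 5.17 in the GCL. The conventional complexin Cplx1 was at 41.3 ± 13.0 in the ONL against 424 ± 54.3 in the GCL. Cplx3, the other ribbon complexin, was at 45.1 ± 10 in the ONL against 28.7 ± 6.26 in the GCL, with overlapping layers, and DESeq2 did not call it (log2 fold change of Cplx3 0.56, adjusted p = 0.0520). Both Rab3a and Rab3c, and both Kif3a and Kif5a, were higher in the GCL, and both hexokinases were higher in the ONL.

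**Figure D5:**
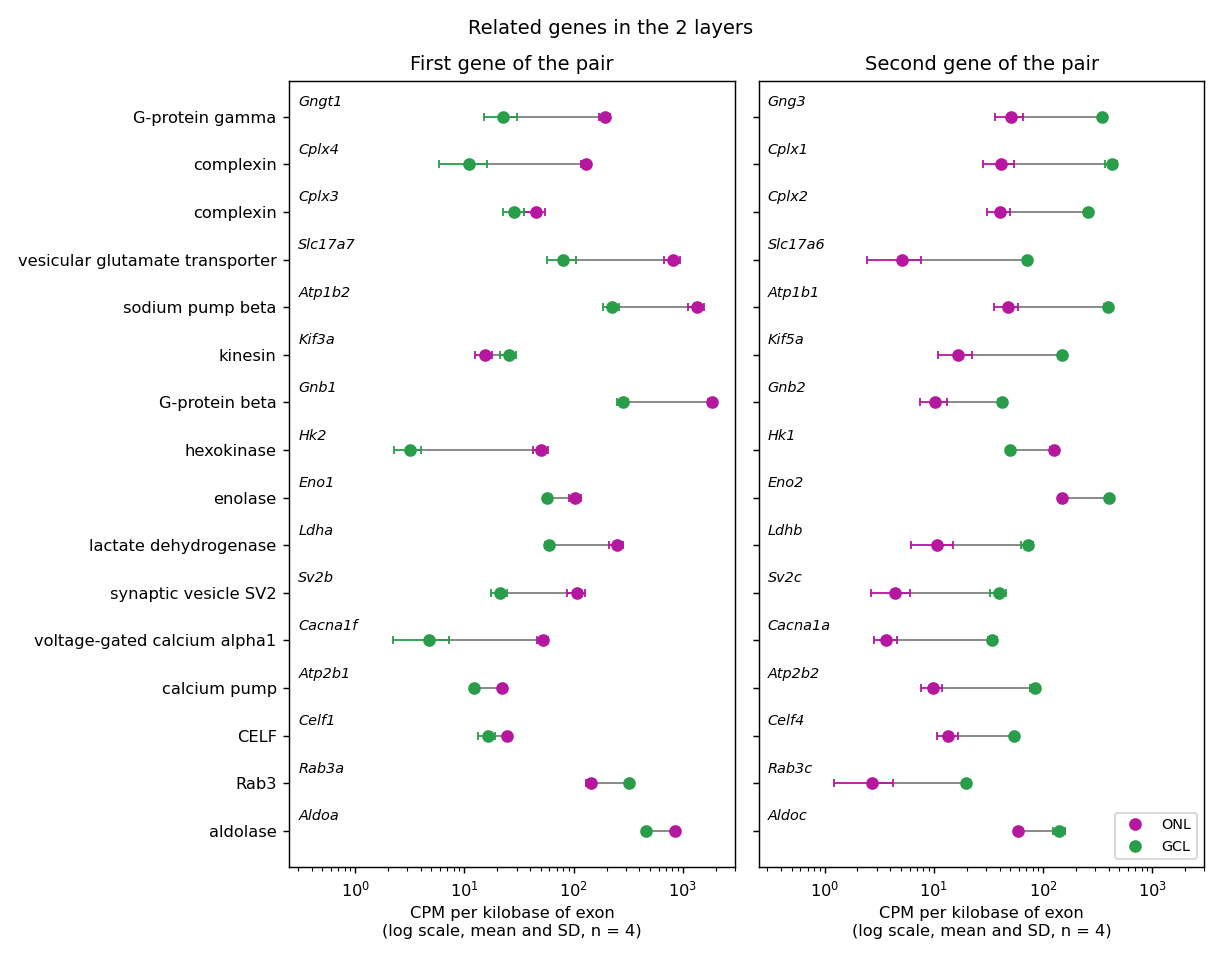
Levels of both genes of 16 pairs (rows) in the ONL (magenta) and the GCL (green) as CPM per kilobase of exon on a log axis, mean and s.d. of 4 sections, first gene in the left and second gene in the right panel. In most rows the layers change places between the panels, and Hk2 and Hk1 are both higher in the ONL.

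Genes of energy metabolism went both ways. Of 28 genes of glycolysis and lactate exchange 13 were higher in the ONL (46.4%), against 9 in the GCL (32.1%), beside 30.2% and 31.3% of all genes. Their median log2 fold change of 0.19 became -0.02 with plain library totals, where the counts were 10 and 10. Hk2, the mitochondria-bound hexokinase of photoreceptors, stood at 267, 302, 372 and 266 CPM in the ONL and 16.5, 12.7, 21.8 and 24.2 CPM in the GCL. Ldha, which favours lactate production, stood at 816 ± 114 CPM in the ONL against 198 ± 14.8 in the GCL. The lactate transporter gene Slc16a1 stood at 349 ± 63.1 CPM in the ONL against 45.7 ± 7.65 in the GCL. Other isoforms were higher in the GCL. Ldhb, which favours the reverse reaction, stood at 113 ± 14.5 CPM in the GCL against 16.6 ± 6.91 in the ONL. The neuronal enolase Eno2 stood at 1866 ± 94.7 CPM in the GCL against 697 ± 14.5 in the ONL. The phosphofructokinase gene Pfkm stood at 179 ± 22.8 CPM in the GCL against 34.5 ± 9.14 in the ONL. Glucose entry had a GCL isoform too, with the neuronal transporter gene Slc2a3 at 116 ± 6.04 CPM in the GCL against 24.7 ± 7.0 in the ONL. The transporter Slc2a1 (1.51) was higher in the ONL, and Tpi1, Gpi1 and Pgk1 were not called. With plain library totals the log2 fold change of Tpi1 was -0.42, and it was called for the GCL.

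Mitochondrially encoded genes took 5.50%, 4.26%, 4.62% and 4.65% of the UMIs in the ONL of sections 1 to 4 and 8.59%, 9.10%, 9.36% and 9.12% in the GCL. The GCL share was higher in 4 of 4 sections, by 4.28 percentage points on average (exact permutation test over the section pairs, two-sided, p = 0.13, the smallest that 4 pairs allow). Reads of another mitochondrial ribosomal RNA gene had been discarded by the authors. The highest CPM in the GCL were those of mt-Rnr2, the large mitochondrial ribosomal RNA (24162 ± 2560 CPM in the GCL against 16629 ± 2016 in the ONL), and of mt-Co1, Lars2, mt-Cytb and mt-Nd1. The oxidase subunit gene mt-Co1 stood at 13975 ± 622 CPM in the GCL against 6743 ± 390 in the ONL. Lars2, the mitochondrial leucyl-tRNA synthetase gene, stood at 11759 ± 1571 CPM in the GCL against 7333 ± 531 in the ONL. Whether all counts given to Lars2 come from its mRNA was not tested. The respiratory genes mt-Cytb and mt-Nd1 had log2 fold changes of -0.71 and -0.89. Among the highest CPM in the ONL were those of mt-Rnr2, Sag, Gnat1, Gnb1 and Rbp3. Of the nuclear genes of the respiratory chain, 71 in all, 12 were called for the ONL and 9 for the GCL, with a median of -0.01, and Ndufb11 (1.13) and Atp5b (0.53) led the first and Cox6b2 (-1.97) and Sdhb (-0.71) were among the second. Cox6b2 was not called without section 1, nor Sdhb without section 3 or by DESeq2. Of the 71 subunit genes DESeq2 called 2 and 2, and plain library totals gave 5 and 15. With 1 section left out these counts lay between 5 and 10 and between 4 and 7.

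Cytosolic ribosomal protein genes took 0.0952% ± 0.00838 of the ONL UMIs against 0.104% ± 0.00144 of the GCL UMIs. Their share was lower in the ONL in 3 of 4 sections (exact permutation test over the section pairs, two-sided, p = 0.250). Of 30 tested 27 were not called. Reads with several matches had been discarded, so genes with many processed copies, such as these, are uncertain. Long noncoding RNA genes took 1.58% ± 0.126 in the ONL and 1.24% ± 0.122 in the GCL, higher in the ONL in 4 of 4 sections (exact permutation test over the section pairs, two-sided, p = 0.13, the smallest possible).

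Genes of the nucleus leaned to the ONL. Rod nuclei of the mouse are small and carry their heterochromatin in the centre. Of 24 genes of lamina, envelope and heterochromatin 13 were higher in the ONL (54.2%), against 5 in the GCL (20.8%), beside 30.2% and 31.3% of all genes. Their median log2 fold change was 0.66. The counts were 9 and 5 under DESeq2, 13 and 7 with RLE size factors, and 11 and 7 with plain library totals (median 0.44). The lamins parted. Lmnb1 stood at 44.5 ± 15.1 CPM in the ONL against 4.57 ± 3.00 in the GCL. Lmna stood at 19.5 ± 5.52 CPM in the GCL against 2.23 ± 2.96 in the ONL. Lmnb2 was not called (-0.08). The envelope gene Syne2 stood at 514 ± 54.6 CPM in the ONL against 77.8 ± 20.9 in the GCL. Tmpo, another envelope gene, stood at 71.9 ± 18.4 CPM in the ONL against 16.3 ± 4.37 in the GCL. The silencing factor gene Smchd1 stood at 180 ± 12.5 CPM in the ONL against 49.7 ± 12.2 in the GCL. The lamin B receptor Lbr (1.59) was higher in the ONL as well. Higher in the GCL were Cbx5, the heterochromatin protein HP1 alpha (191 ± 24.0 CPM in the GCL against 80.8 ± 20.7 in the ONL), the linker histone H1f0 (-0.76), Atrx (-0.45) and Sun2 (-0.98). Among 20 linker, replacement and other histone genes H1f2 (3.16), H3f3b (2.02), H4c3 (2.24) and H1f4 (1.06) led the 9 higher in the ONL, and H1f10 (-1.85), H1f0 (-0.76) and H4c14 (-0.81) were higher in the GCL. H4c14 was not called by DESeq2 or without section 2. Histone genes have near-identical copies, so single values are uncertain.

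Zinc finger genes of the Zfp series were higher in the ONL in 115 of 252 cases (45.6%), against a GCL count of 21 (8.33%), beside 30.2% and 31.3% of all genes. Their median log2 fold change was 0.63. Zfp516 (364 ± 57.2 CPM in the ONL against 62.6 ± 5.96 in the GCL), Zfp654 (2.80), Zfp444 (2.26) and Zfp292 (1.64) had the smallest adjusted p on the ONL side, and Zfp827 (-1.95), Zfp423 (-2.32), Zfp941 (-3.45) and Zfp467 (-1.58) on the GCL side. Under DESeq2 the counts were 70 and 13. General RNA-processing genes leaned the same way. Of 28 hnRNP and SR genes 18 were higher in the ONL, led by Hnrnpu (1.46), Hnrnpl (1.33), Hnrnpul1 (1.12) and Hnrnpm (1.65), and Srsf12 alone was higher in the GCL (16.6 ± 3.39 CPM in the GCL against 3.76 ± 3.49 in the ONL). DESeq2 called 9 of them for the ONL.

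RNA-binding proteins that act in neurons parted by family. Of 28 listed 9 were higher in the ONL (32.1%), against 13 in the GCL (46.4%), beside 30.2% and 31.3% of all genes. Msi1, a Musashi protein with known targets in photoreceptor splicing, stood at 1904, 2282, 2228 and 2166 CPM in the ONL and 256, 292, 301 and 240 CPM in the GCL. Msi2 stood at 1204 ± 89.5 CPM in the ONL against 430 ± 18.2 in the GCL. Pcbp4 (2.60) and Mbnl1 (1.61) were higher in the ONL too. Rbfox1 stood at 414, 360, 388 and 420 CPM in the GCL and 71.7, 28.1, 27.7 and 44.3 CPM in the ONL, and Rbfox2 (-2.76), Rbfox3 (-2.72), Nova2 (-2.91), Nova1 (-2.54), Elavl3 (-2.59), Elavl4 (-2.88) and Elavl2 (-2.84) took the same side. Within CELF, Celf1 (0.62) and Celf2 (0.73) were higher in the ONL and Celf4 (-1.98), Celf5 (-2.39) and Celf6 (-1.53) in the GCL.

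Markers of other cell types also differed between the layers, and their part in the results above was not tested. Of 11 bipolar cell markers 7 were called for the ONL, 1 for the GCL and 3 for neither layer. DESeq2 called 5 for the ONL, and with 1 section left out the count lay between 5 and 8. Among the 7 were Trpm1 (132 ± 40.3 CPM in the ONL against 40.6 ± 17.5 in the GCL), Prkca (0.74), Cabp5 (1.73) and Grm6 (1.77). The 1 called for the GCL, Isl1 (-1.91), is also listed as a ganglion cell regulator. The summed bipolar level was 725 to 1003 CPM in the ONL and 445 to 593 CPM in the GCL. Müller glia span the retina, and of their 10 markers Rlbp1 (1.15), Abca8a (1.11), Car14 (1.18) and Aqp4 (0.92) were called for the ONL. Another 6 were called for the GCL, led by Kcnj10 (-1.96), Dkk3 (-1.48), Apoe (-1.09) and Glul (-0.77). Without section 1 or section 4 neither Car14 nor Aqp4 was called, nor was either by DESeq2. The summed ganglion, amacrine and Müller glia markers were higher in ONL sections 1 and 4 than in ONL sections 2 and 3. Astrocytes lie along the axon bundles, and Gfap (140 ± 31.2 CPM in the GCL against 18.6 ± 10.2 in the ONL), S100b (-2.81), Aldh1l1 (-1.93) and Pax2 were higher in the GCL. Aldh1l1 had overlapping layers and was not called by DESeq2 or without section 2 or 4. Slc1a2, listed as an astrocyte glutamate transporter, was higher in the ONL (1360 ± 248 CPM in the ONL against 149 ± 44.1 in the GCL). It made up 88.2% of the astrocyte sum over both layers. That sum was therefore higher in the ONL (1384 ± 240 CPM against 328 ± 68.9 in the GCL). All 5 microglia markers tested, led by Csf1r (41.3 ± 9.09 CPM in the GCL against 5.45 ± 3.58 in the ONL), were higher in the GCL. So were 6 of 8 vascular markers, led by Rgs5 (343 ± 69.9 CPM in the GCL against 31.2 ± 8.66 in the ONL) and Pdgfrb (-2.85). Vtn, listed with pericytes, was at 1035 ± 195 CPM in the ONL against 85 ± 26.2 in the GCL and was most of the vascular sum in the ONL but not in the GCL. Of the horizontal cell markers Calb1, which amacrine and ganglion cells also use, and Tpm3, Onecut2 and Septin4 were higher in the GCL (-2.79, -1.61, -1.21 and -0.40). DESeq2 called neither Onecut2 nor Septin4, and both calls were lost without section 3. The red cell gene Hbb-bs ranged from 1.18 to 75.8 CPM in the GCL and from 4.69 to 17.1 CPM in the ONL, with overlapping layers.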

How the data were processed

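The deposited values are UMI counts per gene and library, whole numbers without normalization. The authors took barcode and UMI from each read with UMI-tools 1.1.1, mapped the cDNA with STAR 2.7.9a to the mouse genome (mm39), left out reads that matched several places, and gave the rest to exons by featureCounts at its defaults, which use no strand. They collapsed UMIs per gene with UMI-tools. SAMtools 1.9 is also named in the submitters' processing notes. Random priming spreads counts over a transcript, so long genes gather more, and exon lengths from the authors' mouse tables gave CPM per kilobase.

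Here the 8 libraries were fitted with edgeR 4.0.16 (R 4.3.3, glmQLFit and glmQLFTest, TMM scaling, section as a block) for genes with 20 or more UMIs in sum. A gene was called at a Benjamini-Hochberg adjusted p under 0.05. The standard error is the log2 fold change divided by the square root of F. The common biological coefficient of variation was 9.002%. Sections pair the libraries by their labels, and residuals of the ONL and GCL of one section correlated at 0.0146 to 0.0428. Those of different sections correlated at -0.0554 to 0.0296, a range that overlaps the first, so the pairing rests on the labels. The fit was tested on simulated data. Shares were compared with exact permutation tests (scipy 1.17.1), and figures drawn with matplotlib 3.10.9 from tables of numpy 2.4.6 and pandas 2.3.3 under python 3.11.15. Counting intervals are exact (Clopper-Pearson) and, like floors, cover counting error only. Genes given an interval or a floor had 3 or fewer UMIs in 1 layer. They passed the minimum through the other layer, so a ratio well above 1 was fixed in advance. Promoter windows and motif searches used RefSeq sequences of GRCm38.p6, and gene positions GENCODE vM39 (GRCm39), matched by Ensembl identifier for 360 of 361 genes named.

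Named genes were the 3 markers, the 12 genes per direction with the largest difference among those called, with 100 CPM or more and the same direction in 4 of 4 sections, the 5 highest genes per layer, up to 4 members per direction of each described list with the smallest adjusted p, the members called against the majority, the extremes, and the 16 pairs. Some genes entered the fit, the counts and the sums but are not reported here, and they were left out before genes and pairs were named. Further genes in the text (such as Calu, Erc2, Chat, Slc5a7, Uchl1, Thy1, Stmn2, Dpysl2, Mapt, Lbr, Slc2a1 and other list members) were chosen after their values were seen. The lists (21 functions, 44 families and 12 cell types) were written from general knowledge, and the comparison, the lists and the pairs were chosen with earlier results of these data known. Of the 565 members of the function and cell type lists 33 had fewer than 20 UMIs and 4 were not analysed here, and families were counted over the members tested. The horizontal cell marker Sept4 was looked up under its present symbol, Septin4. Not every family is described. Other files of the series were not used here, except the gene annotation.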

Additional observations from a re-analysis of the deposited data

Results flagged for a closer look

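In 80 groups of 4 libraries, the gap between the highest or lowest library and its nearest neighbour was set against the range of the group by Dixon's ratio. It was above the 95% critical value in 2 groups, where chance alone gives about 1 in 20. In the ONL, Rp1 was lowest in section 1, at 4697 CPM against 5670 to 5780 CPM in the other sections. The summed rod markers were lowest there too, and the ganglion, amacrine and Müller glia markers were high. The red cell gene Hbb-bs was highest in ONL section 4, at 17.1 CPM against 4.69 to 6.64 CPM, and it was highest in section 4 of the GCL as well. What sets these libraries apart was not tested.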

How the results depend on the processing

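Without the section as a replicate block, edgeR called 7141 genes, of which 6997 were shared with the blocked fit, and no named gene changed its call. The shares of UMIs kept their differences of -4.28 (mitochondrially encoded) and 0.333 percentage points (long noncoding), and the unpaired exact permutation test gave p = 0.0286 for both, against 0.13 for the paired test. Leaving out 1 section at a time gave 6355 to 6609 calls. DESeq2 called 5236 genes, of which 2232 were higher in the ONL. Calls that were shared with the main fit had the same sign under every alternative. Plain library totals moved the median log2 fold change by -0.21, DESeq2 by -0.11 and RLE size factors by -0.10. Without a low-count filter 23041 genes entered and 6931 were called. With plain library totals Map1b and Vamp2 both stood at -0.04 and Gpi1 at -0.20, while Gpi1 stood at -0.01 without a filter, -0.04 with the edgeR default filter, -0.03 with all 12 libraries and -0.09 with RLE size factors and with DESeq2. Leaving out 1 section, the log2 fold change ranged from -0.06 to 0.02 for Gpi1, -0.35 to 0.19 for Grik1, -0.50 to 0.29 for Lmnb2, -0.56 to 0.40 for Lrrtm4 and -0.08 to 0.70 for Prox1. Without the block, Lrrtm4 stood at 0.03. Calls of genes named here were lost without section 1 for Prox1, Aqp4, Car14, Gabrr1, Slc6a9, Ift172, Cox6b2, Lin37 and Sema3c, without section 2 for Aldh1l1, Aqp4, H4c14, Lin37, Proser3 and Sema4b, without section 3 for Prox1, Onecut2, Sdhb, Lin37, Sema3c and Septin4, and without section 4 for Prox1, Aldh1l1, Aqp4, Car14, Gabrr1, Gabrr2, Hbb-bs, Lin37, Proser3, Sema3c and Septin4. DESeq2 did not call Aldh1l1, Aqp4, Car14, Cplx3, Gabrr1, Gabrr2, H4c14, Hbb-bs, Ift172, Kif13a, Lin37, Onecut2, Proser3, Prox1, Sdhb, Sema3c, Sema4b, Septin4, Slc6a9 and Tcf4. With plain library totals Aqp4, Gabrr1, Lin37, Proser3, Prox1, Slc6a9 and Tcf4 were not called, with RLE size factors Aqp4, Lin37 and Prox1, with the edgeR default filter Aqp4 and Prox1, and without a filter or with all 12 libraries Prox1. Without section 1, Rxrg was called for the GCL, and without section 4 Map1b was called for the ONL. Tpi1 and Nfasc were called for the GCL with plain library totals, and Tpi1 also with RLE size factors and with the edgeR default filter. The ONL of section 4 was the shallowest library, with 310228 UMIs, and the effect of depth on genes of few UMIs was not tested.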

Other observations

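Long noncoding RNA genes leaned to the ONL. Of 263 tested 121 were higher in the ONL, against 50 in the GCL, with a median log2 fold change of 0.96, against 30.2% and 31.3% of all genes and a median of 0.03. The host genes of miR-124, a neuronal microRNA, were higher in the ONL too. Mir124a-1hg stood at 846 ± 216 CPM in the ONL against 134 ± 29.1 in the GCL and Mir124-2hg at 804 ± 64.5 CPM in the ONL against 148 ± 18.8 in the GCL. AI847159 (352 ± 65.4 CPM in the ONL against 24.4 ± 3.69 in the GCL) and Rncr4 (252 ± 43.5 CPM in the ONL against 14.6 ± 6.33 in the GCL), a retina-enriched transcript, were further apart. Gm13583 had 37 UMIs in the ONL and none in the GCL, at least 17.0-fold higher at a floor of 3 UMIs over the 4 libraries. It passed the minimum of UMIs through the ONL alone, which fixes a large difference in advance. Exons of Gm13583 overlap those of Pla2r1 on the opposite strand. On the GCL side stood the imprinted gene Meg3 (890 ± 147 CPM in the GCL against 140 ± 20.8 in the ONL), its neighbour Rian (112 ± 34.0 CPM in the GCL against 18.4 ± 8.05 in the ONL) and 2900052N01Rik (68.3 ± 14.3 CPM in the GCL against 5.85 ± 0.830 in the ONL). Counting used no strand, so reads of overlapping genes on opposite strands cannot be told apart.

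Chaperone genes did not move as a block. Of 57 heat shock and DnaJ genes 22 were higher in the ONL (38.6%), against 13 in the GCL (22.8%), beside 30.2% and 31.3% of all genes. DESeq2 called 14 and 10 of them. Hspb6, a small heat shock protein gene, stood at 592 ± 119 CPM in the ONL against 58.2 ± 8.06 in the GCL, and its locus lies opposite Lin37 and Proser3. The cytosolic HSP90 isoforms took opposite layers, with Hsp90aa1 at 324 ± 42.7 CPM in the ONL against 154 ± 16.1 in the GCL and Hsp90ab1 at 1194 ± 74.5 CPM in the GCL against 338 ± 29.5 in the ONL. Hspa1a, the inducible HSP70, had 31 UMIs in the ONL and 1 in the GCL, a ratio of 42.6 with an exact 95% counting interval of 7.10 to 1737. As Hspa1a passed the minimum of UMIs through the ONL alone, a large ratio was fixed in advance. Its near-identical copy Hspa1b stood at 15.5 ± 4.03 CPM in the ONL against 1.35 ± 0.985 in the GCL. Thyroid hormone receptor genes also parted, with Thrb at 361 ± 74.6 CPM in the ONL against 48.8 ± 16 in the GCL and Thra at 349 ± 26.5 CPM in the GCL against 81.0 ± 26.9 in the ONL. Among plasma membrane calcium pumps, Atp2b1 (0.85) was higher in the ONL and Atp2b2 (-3.12), Atp2b4 (-2.86) and Atp2b3 (-4.04) in the GCL, with log2 fold changes in brackets. The cause of these differences was not tested.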
